A study of Homo sapiens with 12 samples.

Results

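The RNA bound by eIF3a was compared with the RNA bound by eIF3b, a pair of subunits of the translation initiation factor eIF3. The comparison used 4 RNA immunoprecipitation (RIP-seq) peak lists, 2 replicates of each subunit, out of 12 samples in the series. Members were chosen by the name attached to each peak: 10242 genes had a peak in at least 1 of the 4 lists, out of 10830 genes with a peak in any of the 6 lists deposited. Genes with a peak in both lists of one subunit and in neither list of the other formed the contrast sets. They held 166 genes for eIF3a and 447 genes for eIF3b, beside 3985 genes with a peak in all 4 lists.

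All samples were HepG2, a human liver cancer cell line, made stably to carry a 3XFlag-tagged protein by viral infection (pSIN4-3XFlag-eIF3a for the eIF3a RIP, pSIN4-3XFlag-eIF3b for the eIF3b RIP, and a METTL16 construct for the remaining RIP). Bound RNA was recovered after ultraviolet cross-linking and compared with input RNA. The labels give a Flag antibody for the eIF3b and METTL16 RIPs and an antibody to eIF3a itself for the eIF3a RIP, so subunit, construct and antibody cannot be told apart in any difference below. The methods call the 2 replicates biological, and no control RIP from cells without a construct was analysed here.

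eIF3 is the largest of the initiation factors. It binds the small ribosomal subunit, holds it in a form ready to receive the initiator tRNA and the mRNA, and remains close to the mRNA while the start codon is found. eIF3a and eIF3b are core subunits: eIF3a is a long scaffold on which much of the complex is built, and eIF3b carries a propeller-shaped domain and contacts eIF3a directly. Cross-linking studies of eIF3 have placed it on defined stretches of particular mRNAs as well as on the ribosome.

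The sequences below are examples from each class of gene. They were read from GRCh38 on the strand of the gene, 5′ to 3′, within 1 exon, with capitals for the bases that lay under a peak in both lists of the subunit and lower case for the flanks. The first 4 belong to genes with peaks in both eIF3a lists alone. FARS2, the mitochondrial phenylalanyl-tRNA synthetase, is shown at chr6:5368645-5368878 (+ strand, exon 2 of 7, coding), KIAA1024 (MINAR1, a membrane protein) at chr15:79456540-79456744 (+, exon 2 of 4, coding), SHROOM2, an actin-binding protein, at chrX:9895631-9895775 (+, exon 4 of 10, coding) and OSCP1 at chr1:36420476-36420615 (−, exon 8 of 10, coding).
FARS2: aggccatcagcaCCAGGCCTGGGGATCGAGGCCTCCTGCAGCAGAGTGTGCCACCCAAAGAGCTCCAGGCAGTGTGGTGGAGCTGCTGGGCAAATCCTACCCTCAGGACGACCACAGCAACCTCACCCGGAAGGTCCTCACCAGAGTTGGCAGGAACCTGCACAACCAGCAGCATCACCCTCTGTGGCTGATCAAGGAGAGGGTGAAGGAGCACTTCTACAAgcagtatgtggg
KIAA1024: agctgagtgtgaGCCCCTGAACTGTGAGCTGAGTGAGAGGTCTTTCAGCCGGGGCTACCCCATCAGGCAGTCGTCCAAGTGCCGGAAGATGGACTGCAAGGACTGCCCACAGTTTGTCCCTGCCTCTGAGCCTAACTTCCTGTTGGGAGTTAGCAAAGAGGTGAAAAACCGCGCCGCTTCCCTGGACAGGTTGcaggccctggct
SHROOM2: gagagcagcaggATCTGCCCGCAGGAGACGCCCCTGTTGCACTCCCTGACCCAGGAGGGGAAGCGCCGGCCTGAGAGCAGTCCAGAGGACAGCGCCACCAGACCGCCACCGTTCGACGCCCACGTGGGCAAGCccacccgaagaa
OSCP1: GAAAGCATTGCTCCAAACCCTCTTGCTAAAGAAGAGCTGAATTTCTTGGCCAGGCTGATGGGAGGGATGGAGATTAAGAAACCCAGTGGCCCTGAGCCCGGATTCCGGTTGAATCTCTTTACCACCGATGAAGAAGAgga
The next 4 belong to genes with peaks in both eIF3b lists alone. PARP1, which builds poly(ADP-ribose) chains at DNA breaks, is shown at chr1:226379922-226380089 (− strand, exon 10 of 23, coding), ESRP2, an epithelial splicing regulator, at chr16:68231188-68231361 (−, exon 12 of 15, coding), RSAD1, a radical SAM domain protein, at chr17:50483340-50483487 (+, exon 6 of 9, coding) and BRD7, a bromodomain protein, at chr16:50334711-50334880 (−, exon 7 of 17, coding).
PARP1: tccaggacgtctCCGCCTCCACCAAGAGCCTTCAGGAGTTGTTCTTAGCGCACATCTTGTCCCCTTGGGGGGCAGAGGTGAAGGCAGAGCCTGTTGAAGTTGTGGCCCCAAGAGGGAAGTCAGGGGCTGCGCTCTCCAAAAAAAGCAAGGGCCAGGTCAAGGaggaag
ESRP2: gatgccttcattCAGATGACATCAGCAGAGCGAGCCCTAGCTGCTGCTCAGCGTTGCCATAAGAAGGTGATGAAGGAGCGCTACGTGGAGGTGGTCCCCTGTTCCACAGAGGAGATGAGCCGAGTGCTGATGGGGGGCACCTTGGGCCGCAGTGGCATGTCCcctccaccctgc
RSAD1: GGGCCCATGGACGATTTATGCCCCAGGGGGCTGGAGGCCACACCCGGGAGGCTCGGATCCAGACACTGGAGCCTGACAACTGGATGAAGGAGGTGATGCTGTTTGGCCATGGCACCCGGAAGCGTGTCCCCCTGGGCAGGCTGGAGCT
BRD7: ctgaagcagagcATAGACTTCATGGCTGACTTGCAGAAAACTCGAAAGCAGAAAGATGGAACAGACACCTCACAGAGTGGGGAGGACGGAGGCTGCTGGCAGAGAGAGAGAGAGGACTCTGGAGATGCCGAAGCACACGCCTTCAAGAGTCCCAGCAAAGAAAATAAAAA
The last pair comes from mRNAs that encode eIF3 subunits, with capitals for the bases under a peak in all 4 lists. They are EIF3B at chr7:2355186-2355329 (+, exon 1 of 19, coding) and EIF3J, which encodes a loosely held subunit, at chr15:44551431-44551522 (+, exon 4 of 8, coding).
EIF3B: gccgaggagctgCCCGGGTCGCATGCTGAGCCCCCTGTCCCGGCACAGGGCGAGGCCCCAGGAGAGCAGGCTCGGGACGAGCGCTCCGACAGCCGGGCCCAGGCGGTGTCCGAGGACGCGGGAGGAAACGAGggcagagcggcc
EIF3J: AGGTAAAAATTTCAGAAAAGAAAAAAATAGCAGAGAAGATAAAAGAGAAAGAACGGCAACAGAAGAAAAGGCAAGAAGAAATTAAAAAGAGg
The 2 shared stretches differed widely in base composition. G and C made up 75% of the 120 capitals of EIF3B and 29.7% of the 91 capitals of EIF3J. The corresponding shares were 60% for FARS2, 58% for KIAA1024, 69.4% for SHROOM2 and 49.6% for OSCP1, and 58.7% for PARP1, 60.7% for ESRP2, 64.9% for RSAD1 and 50% for BRD7. These examples do not show the composition of their classes: the mean peak GC content over all eIF3a-alone genes was 48.1% and 47.7% in the 2 replicates, and over all eIF3b-alone genes 61.5% and 58.2%.

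The lists differed in length before any gene was compared. eIF3a replicate 1 held 21733 peaks in 8166 genes and eIF3a replicate 2 held 12921 peaks in 5226 genes. eIF3b replicates 1 and 2 held 20832 and 20027 peaks in 8063 and 7570 genes. eIF3a replicate 2 was thus the shortest list, and eIF3b replicate 1 stood apart in base composition, with a mean peak GC content of 58.1% against 53.1% to 54.1% in the other 3. The deposited lists carry no read counts, so the sequencing depth behind each peak is unknown and the number of peaks is the only guide to it. Of 8 genes that mark the hepatocyte lineage, 5 had a peak in at least 1 list: HNF4A and SERPINA1 in all 4, APOA1 and APOB in 3 and FGB in 2. ALB, AFP and TTR had none, and a gene without a peak may be expressed.

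Most genes seen with one subunit were seen with the other. Between 80.6% and 86.1% of the genes of an eIF3a list were also in a given eIF3b list, and 55.8% to 86.9% the other way. The 3985 genes in all 4 lists were 38.9% of the genes with any peak, and the next most frequent pattern, 1902 genes (18.6%), was presence in every list but the short eIF3a replicate 2. Genes seen with eIF3a alone in both replicates were 1.62% of the total and genes seen with eIF3b alone were 4.36%. Those shares were of the size of patterns that join replicates of different subunits, since 528 genes were found in eIF3a replicate 1 and eIF3b replicate 1 alone and 462 in eIF3a replicate 1 and eIF3b replicate 2 alone. The corresponding patterns with eIF3a replicate 2, the shortest list, held 137 and 76 genes. At an equal 12000 peaks per list they held 185 and 158, against 263 and 293 with eIF3a replicate 1. At that setting 243 genes were eIF3a-alone and 330 eIF3b-alone, the latter above every mixed pair. At 4-fold enrichment or more 142 genes were eIF3a-alone and 520 eIF3b-alone. The mixed pairs then held 463 and 358 with eIF3a replicate 1 and 174 and 93 with eIF3a replicate 2, again all below the eIF3b-alone count.

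**Figure D1:**
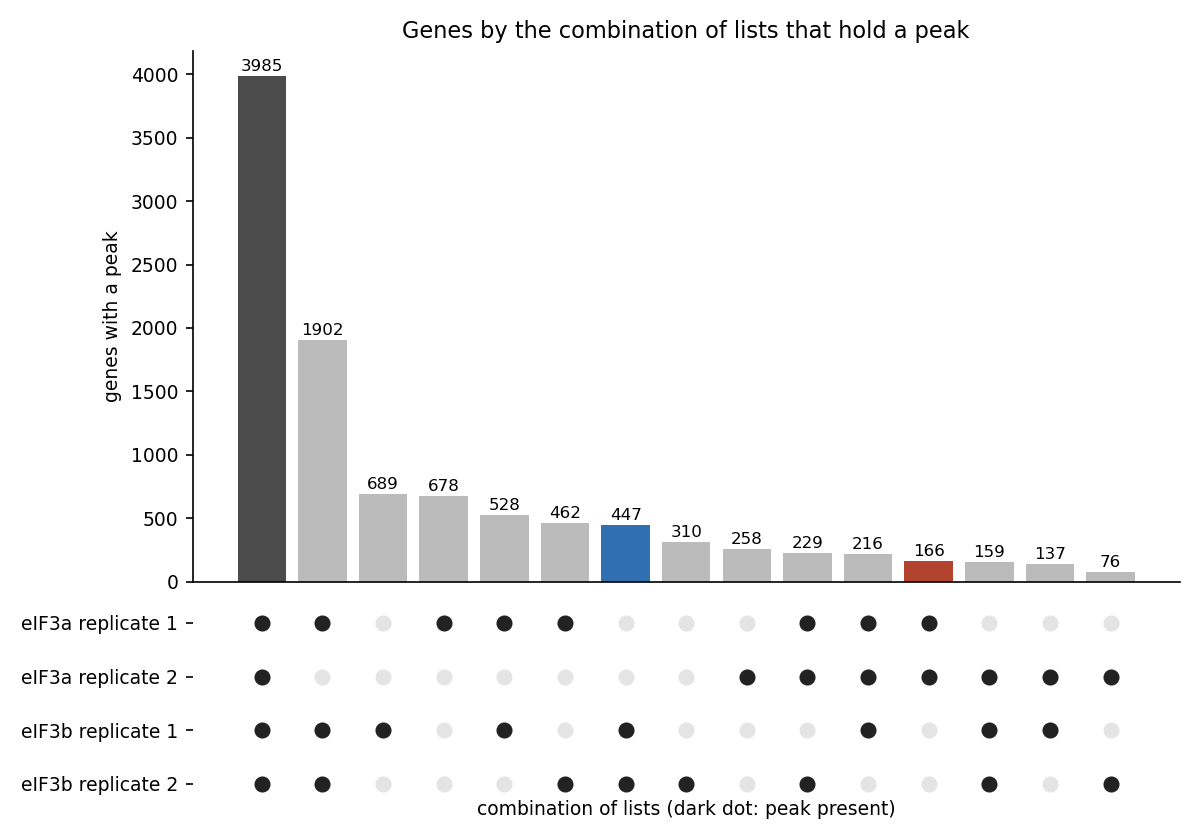
Number of genes with a peak (y axis, bars) in each combination of the 4 lists (x axis, dark dots mark the lists that hold a peak), over 10242 genes. The 3985 genes in all 4 lists form the tallest bar, and the contrast sets of 166 and 447 genes lie within the range of the pairs that mix the subunits (76 to 528).

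On average, replicates of one subunit overlapped about as much as lists of different subunits. The Jaccard index, the genes shared by 2 lists as a share of the genes in either, was 0.523 between the eIF3a replicates and 0.71 between the eIF3b replicates. Between subunits it was 0.691 and 0.718 with eIF3a replicate 1 and 0.511 and 0.533 with eIF3a replicate 2, and the highest of the 6 indices joined eIF3a replicate 1 to eIF3b replicate 2. The mean was 0.616 within subunits and 0.613 ± 0.106 (SD, n = 4 pairs) between them. The difference of 0.00304 gave an exact one-sided permutation p of 0.333 over the 3 ways to pair 4 lists, the smallest p this design allows. By exonic bases in place of genes the means were 0.357 within and 0.343 ± 0.0886 between.

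In genes bound with both subunits, the peaks lay on the same stretches about as often as replicates did. Over the 3985 common genes, the share of one list's peak bases that lay under a peak of another averaged 57.4% ± 8.89 (range 46.1% to 68.6%) between subunits and 58.8% (50.4% to 70.5%) between replicates. A base covered in all 4 lists was present in 2908 of the 3985 genes (73%), EIF3B and EIF3J above among them, and such bases were 17.8% of all bases covered in any list. Only 59 genes (1.48%) had no base shared between the subunits. In 3 of these the separate positions were seen in both replicates of each subunit. HN1L had eIF3a bases at chr16:1700875-1701024 and eIF3b bases at chr16:1699258-1699348, and QTRT2, a subunit of the queuine tRNA-ribosyltransferase, at chr3:114087584-114087644 and chr3:114087793-114087883, all in the 3′ UTR on the + strand. CNOT2, a subunit of the CCR4-NOT deadenylase, was the remaining gene, but its eIF3b replicates shared a single base.

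The genes found with eIF3a alone had mixed roles. By the summed length of their peaks (the rule for the named genes was the larger value in the lower list), the leading genes were DIP2C (572 bases in replicate 1 and 1348 in replicate 2), SIMC1 (421 and 2030), ZNF585B (423 and 361) and FARS2 (330 and 1106). ZNF367 (392 and 299), KIAA1024 (302 and 2400) and STIL, needed for centriole duplication (300 and 3018), came next. SLC26A10 (298 and 299, a name now given to a pseudogene), ACVR1, a BMP receptor (272 and 359), SHROOM2 (272 and 1798), ATP8B1, a phospholipid flippase of the bile canaliculus (271 and 331), and RNF144A, a ubiquitin ligase (271 and 1349), completed the 12. The eIF3a replicate 2 value was the higher in 10 of them, the exceptions being ZNF585B and ZNF367. The replicates shared at least 1 base in 8 of the 12 and none in DIP2C, ZNF585B, STIL and ATP8B1.

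By fold enrichment over input the leading eIF3a-alone genes were KATNAL2, a katanin-like microtubule protein (29.8 and 25.7 in the 2 replicates), KIAA1024 (22.3 and 36.7), OSCP1 (22.3 and 36.7), STAC3 (22.3 and 26.9), LRRTM4 (19.8 and 25.7), SHROOM2 (19.8 and 33), the RNA-binding protein MSI1 (19.8 and 20.8) and MTRNR2L2 (19.8 and 18.4). MTRNR2L2 is a nuclear copy of mitochondrial ribosomal RNA, so its reads cannot be assigned with certainty. The same replicate 1 folds recurred in many peaks: 19.8 stood in 278 peaks of eIF3a replicate 1, 17.4 in 302, 14.9 in 315 and 2.48 in 466. Equal folds in this list are therefore not a ranking. The 2 replicates shared a peak base in 7 of the 8 genes that led by fold, STAC3 being the exception. Other genes of this set included NUP205 (181 and 1170 bases) and NUP54 (90 and 803) of the nuclear pore, FANCD2 (120 and 632) and RAD51B (329 and 270) of DNA repair, and MCM10 of DNA replication (151 and 990). In these the replicates shared a peak base in NUP54 and RAD51B and none in NUP205, FANCD2 and MCM10.

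The genes found with eIF3b alone were led by RSAD1 (836 bases in replicate 1 and 598 in replicate 2), ARHGEF25 (572 and 632), and ESRP2 (599 and 537). MVD, the mevalonate diphosphate decarboxylase of cholesterol synthesis (1200 and 452), RDH10, a retinol dehydrogenase (451 and 478), PARP1 (450 and 662) and STARD3, a sterol carrier of late endosomes (1196 and 450), came next. UBE2M, which conjugates NEDD8 (509 and 449), CBX8 of the Polycomb complex (447 in both), BRD7 (805 and 446), ZNF789 (595 and 446) and BAX, which permeabilises mitochondria in apoptosis (593 and 416), completed the 12. The 2 replicates shared a peak base in all 12. Among them, MVD, STARD3 and BRD7 had much longer peaks in replicate 1, whereas ARHGEF25, RDH10 and PARP1 were longer in replicate 2.

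By fold enrichment the set was led by the histone gene HIST3H2A (20.6 and 23.5), the corepressor HR (20.6 and 26.4), C16orf52 (MOSMO, 19.2 and 30.8) and RRAGC, a Rag GTPase that signals amino acids to mTORC1 (17.8 and 23.5). The tyrosine kinase FES (19.2 and 17.6) and the tendon factor SCX (16.5 and 17.6) followed, with AQP3, a water and glycerol channel, and C17orf107 (19.2 and 16.5 in replicate 1) last of the 8. The 2 replicates shared a peak base in 5 of the 8 and none in FES, SCX and C17orf107. The anti-proliferative gene BTG1 was in this set with 151 and 301 bases, and so were the mTORC1 components or targets AKT1S1 (717 and 180) and RPS6KB2 (61 and 121). 16 of the 447 names were γ-protocadherins (PCDHG), which share their last exons: all 22 PCDHG names of eIF3b replicate 1 carried a peak at chr5:141512259-141512323 (12.4-fold), and 18 names of replicate 2 carried one at chr5:141511509-141511605 (7.34-fold), 653 bases away. Counted once, this locus leaves 432 eIF3b-alone genes.

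**Figure D2:**
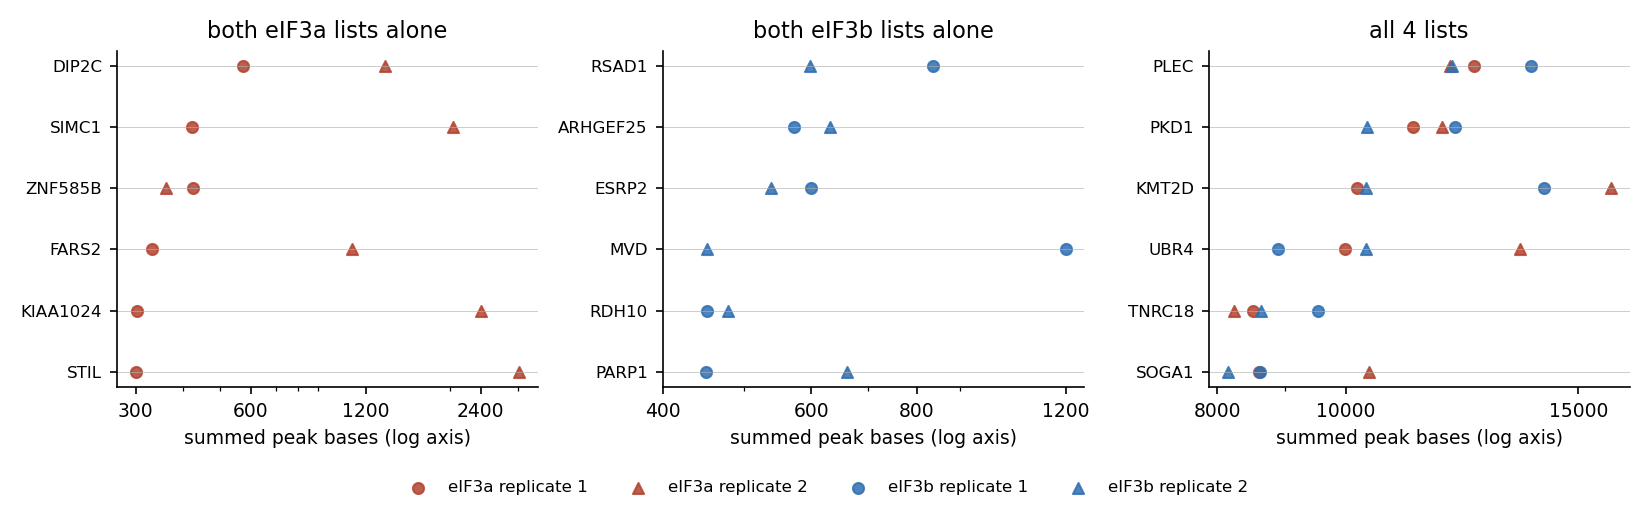
Summed peak bases (log x axis) of the 6 leading genes of each class, 1 row per gene and 1 point per list that has a peak (red eIF3a, blue eIF3b, circles replicate 1, triangles replicate 2). Genes of the contrast sets lie between 300 and 3018 bases, whereas the genes in all 4 lists lie between 8144 and 15869.

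Both contrast sets rested on short peaks of low rank by p-value, whereas their fold enrichment was low for eIF3b alone and not for eIF3a alone. When the genes of each list were ordered by p-value, the eIF3a-alone genes had a median position of 77.3% in replicate 1 and 67.4% in replicate 2, and the eIF3b-alone genes 71.5% and 78.9%, where 0 is the strongest. The genes common to all lists had medians from 30.7% to 45.1%. The median summed length was 151 and 240 bases for the eIF3a-alone genes and 208 and 150 for the eIF3b-alone genes, against 542 to 872 for the common genes. The median of the highest fold per gene was 4.44 and 5.14 for the eIF3a-alone genes, above the 4.28 and 3.44 of the common genes in the same lists, and 3.31 and 2.78 for the eIF3b-alone genes, below the 5.73 and 4.72 of the common genes. In eIF3a replicate 2, 13 of the 166 eIF3a-alone genes were in the top 10% by p-value, and in each of the other 3 lists 0 genes of the contrast set were. Replicates shared a base in 68 of the 166 eIF3a-alone genes (41%, 95% Wilson interval 33.8 to 48.6) and in 299 of the 447 eIF3b-alone genes (66.9%, 62.4 to 71.1). In common genes with a single peak in each list, which are closer in peak number, the figures were 60.6% for eIF3a and 75.6% for eIF3b, against 30.8% and 57% for single-peak genes of the contrast sets. Wilson intervals cover counting error over genes only.

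Membership of the sets depended on the peaks kept. With the 5000 peaks of smallest p-value in each list, 0 of the 166 eIF3a-alone genes and 11 of the 447 eIF3b-alone genes were still in their set, and at 4-fold enrichment or more 72 and 124 were. With the 12000 peaks of smallest p-value in each list, which makes the lists about equal in length, there were 243 eIF3a-alone and 330 eIF3b-alone genes, of which 52 and 118 belonged to the sets of 166 and 447. Dropping a list, which also relaxes the rule, gave eIF3a-alone counts of 424 and 844 without eIF3a replicates 1 and 2, and 382 and 395 without eIF3b replicates 1 and 2. The eIF3b-alone counts were 2349 and 606 without eIF3a replicates 1 and 2, and 757 and 1136 without eIF3b replicates 1 and 2.

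The 2 sets differed in the composition of their transcripts. The median mature transcript of the eIF3a-alone genes was 3687 bases long with 43.2% GC, and that of the eIF3b-alone genes 2634 bases with 53.8% GC, against 4636 bases and 50.6% for the common genes. A METTL16 peak in both METTL16 lists was present in 8 of the 166 eIF3a-alone genes (4.82%, 2.46 to 9.22) and in 161 of the 447 eIF3b-alone genes (36%, 31.7 to 40.6), as in 2730 of the 3985 common genes (68.5%). RNF144A was the single gene of the 12 leading eIF3a-alone genes with a METTL16 peak in both lists, whereas 9 of the 12 leading eIF3b-alone genes had one, the exceptions being ARHGEF25, RDH10 and ZNF789. Within each of 5 equal bins of GC content the METTL16 share was also lower for eIF3a-alone genes, though on few genes. It was 3.45% (2 of 58 genes) against 14.8% in the lowest bin and 20% (2 of 10 genes) against 58.9% in the highest. Transcript length was not matched within the bins, and the part of GC content in the METTL16 difference was not tested. Mean peak GC content was 59% and 60.8% in the METTL16 lists. By the labels the METTL16 and eIF3b RIPs used a Flag antibody and the eIF3a RIP did not. Antibody and subunit cannot be told apart in this difference.

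The difference in composition depended on the lists used, most of all on eIF3b replicate 1. Genes found in eIF3b replicate 1 alone had a median GC content of 55.3%, and genes found in eIF3a replicate 1 and eIF3b replicate 1 alone had 54.1% with METTL16 peaks in 34.7% of them, close to the eIF3b-alone genes. Genes found in eIF3a replicate 2 and eIF3b replicate 1 alone had 48.8% and 15.3%, between the contrast sets. Genes of the 3 pairs without eIF3b replicate 1 had 41.4% to 43.8% GC and METTL16 shares of 4.82% to 11.8%. Without eIF3b replicate 1 the GC difference between the contrast sets (eIF3a-alone minus eIF3b-alone) moved from -10.7 to -4.38 percentage points and the METTL16 difference from -31.2 to -6.25 points. Without eIF3b replicate 2 they were -12.7 and -21.9, without eIF3a replicate 1 -7.44 and -46.7, and without eIF3a replicate 2 -7.08 and -29.1, so both kept their sign.

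Long transcripts were more often found with both subunits. The share of genes in all 4 lists rose over 5 equal bins of transcript length from 13.9% to 28%, 41.3%, 51.7% and 60.7%. The eIF3b-alone share fell over the same bins from 7.54% to 1.43%, and the eIF3a-alone share stayed between 1.38% and 1.78%. Over the GC bins the eIF3a-alone share fell from 2.86% to 0.493%, while the eIF3b-alone share was 2.66% in the lowest bin and 5.28% in the highest, with its top value of 6.41% in the bin before it. Transcript length also sets how many bases can carry a peak, and its part in the overlap was not tested.

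**Figure D3:**
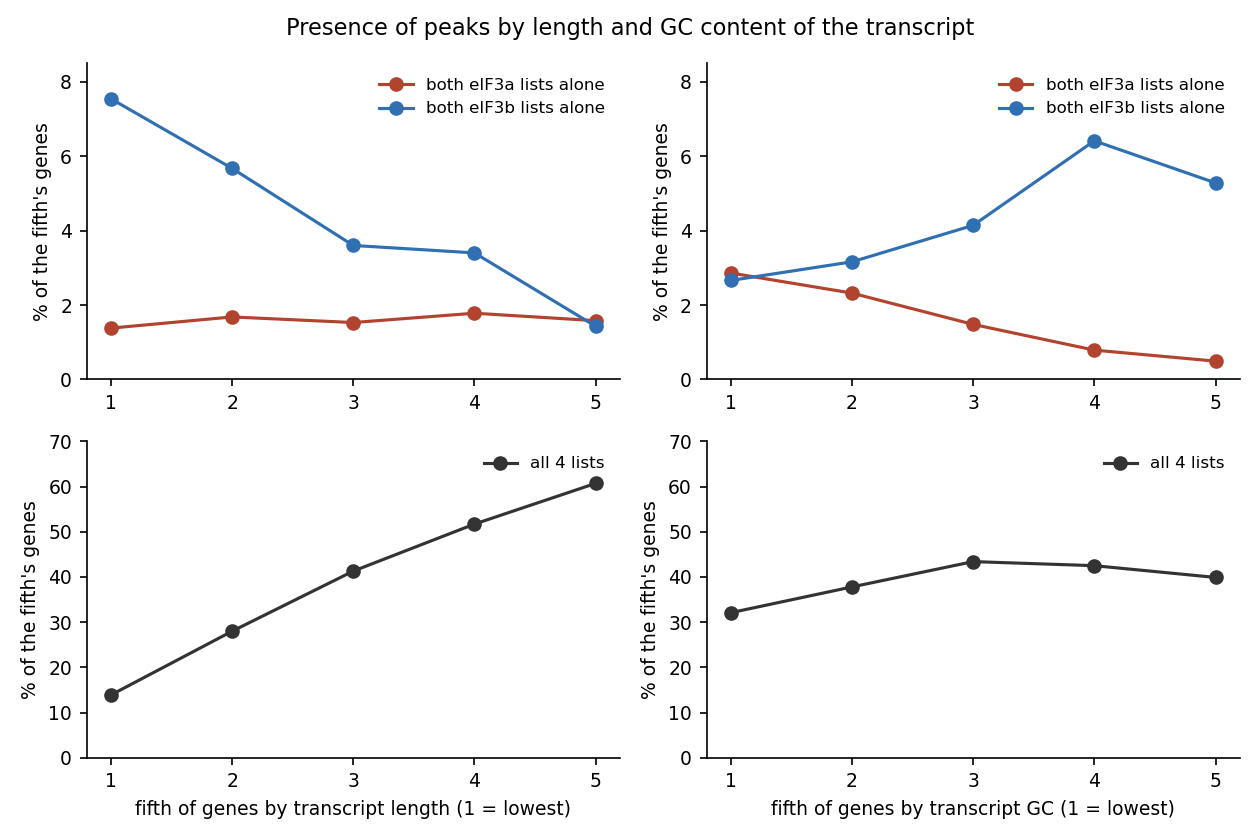
Share of genes in each class (y axis, percent of the genes in the bin) over 5 equal bins of mature transcript length and of transcript GC content (x axes), with about 2027 genes per bin. Presence in all 4 lists climbs from 13.9% to 60.7% with length. With GC content the eIF3a-alone share falls, while the eIF3b-alone share rises to 6.41% in the bin before the highest and is 5.28% in the highest.

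Among the common genes, 0 genes passed a test of summed peak length or of highest fold enrichment between the subunits. PLEC, a giant cytoskeletal linker, had the largest summed peak length in its lowest list, with 12508 and 12000 bases for eIF3a and 13819 and 12031 for eIF3b. PKD1, polycystin-1, followed with 11247 and 11834 against 12107 and 10375. KMT2D, a histone H3 lysine 4 methyltransferase, had 10207 and 15869 against 14128 and 10362, and UBR4, a ubiquitin ligase, 9998 and 13554 against 8888 and 10360. The subunits' values overlapped for all of these. They did not for TNRC18 (8513 and 8239 against 9527 and 8633) and HIPK2, a nuclear kinase (7601 and 14038 against 7303 and 7361), and the 10 others of the leading 12, which included SRCAP, SRRM2 and FASN, fatty acid synthase (7504 and 6811 against 7473 and 7593), overlapped. By highest fold enrichment the same 12 genes overlapped in 5, with both eIF3b values above both eIF3a values in 7 and the reverse in 0, beside 34% and 7.53% of all genes tested.

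Over all 3985 genes, both eIF3a values lay above both eIF3b values in 8.91% and below them in 28.2% for summed bases, and the corresponding shares for the highest fold enrichment of a gene were the 7.53% and 34% given above. The lists differ in overall level: the median difference of all genes, eIF3a minus eIF3b, was -0.30 for bases and -0.40 for fold on the log2 scale. Each list was therefore centred on its median before the fit. With limma and Benjamini-Hochberg adjustment, 0 genes (0% in either direction) passed an adjusted p of 0.05 for bases or for fold. At an unadjusted p under 0.05 there were 190 genes for bases (4.77%; 109 higher in eIF3a and 81 higher in eIF3b) and 237 for fold (5.95%; 137 and 100). Without centring the split turned to 47 and 125 for bases and 62 and 225 for fold. In simulated lists every gene was given 1 pooled spread (SD 0.881 for bases and 0.766 for fold on the log2 scale). Of 100 genes changed by a log2 value of 2, 16 were recovered for bases and 21 for fold. At a log2 value of 4, 84 and 98 of 100 were recovered. Unchanged genes gave 4 and 9 false calls. Genes of the real lists differ in spread, so these rates need not hold for them. Changes of several fold in single genes could go uncalled.

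The genes with the smallest p-values, chosen after their values were seen, are given as values only. RCOR3, a corepressor subunit, had 689 and 388 peak bases with eIF3a and 61 and 91 with eIF3b, and SETBP1 2351 and 4320 against 453 and 483. LAMC1, the laminin γ1 chain, had 121 and 151 against 1295 and 965. By fold enrichment ZNF385A had 26 and 23.3 with eIF3a and 5.49 and 2.71 with eIF3b. FOSL2, an AP-1 transcription factor, had 6.2 and 2.67 against 79.2 and 51.4 (log2 difference -3.53 ± 0.54 SE, limma adjusted p = 0.696), the receptor IGF1R 6.99 and 7.85 against 60.2 and 48.3, and the RNA-binding protein SYNCRIP 39.7 and 22 against 305 and 176.

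JUN, an AP-1 gene whose mRNA is a known eIF3 target, had peaks in all 4 lists, with 1648 and 1110 bases for eIF3a and 2099 and 1827 for eIF3b. Its highest folds were 5.16 and 4.51 for eIF3a and 19.3 and 11.2 for eIF3b. The groups did not overlap on either scale as deposited, but after centring the log2 difference was -0.16 ± 0.56 for bases and -1.17 ± 0.49 for fold (limma adjusted p = 0.946 and 0.807).

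The mRNAs of eIF3 itself were unevenly covered. Of 13 subunit genes, 10 had a peak in at least 1 list, 3 in all 4 (EIF3A, EIF3B and EIF3J) and 1, EIF3D, in both eIF3b lists alone (482 and 181 bases). EIF3F, EIF3K and EIF3L had none. EIF3A had 2578 and 2279 bases in the eIF3a lists and 2578 and 2638 in the eIF3b lists, nearly all coding, with folds of 11.8 and 2.9 against 11.9 and 9.7. EIF3B had 630 and 120 bases with eIF3a and 1381 and 1501 with eIF3b, and folds of 2.84 and 1.34 against 6 and 3.34. The EIF3B groups did not overlap, but the log2 difference in bases of -2.01 ± 0.78 gave a limma adjusted p of 0.853. EIF3J had 629 and 91 bases against 659 and 599. Each cell line also carried a tagged construct of the bait, whose reads in coding exons cannot be told apart from those of the gene, and the construct's part in these values was not tested.

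Other translation genes were found in all 4 lists or with eIF3b alone more often than with eIF3a alone, as were all genes (38.9%, 4.36% and 1.62%). Of 36 other initiation factor genes with a peak, 17 (47.2%, against 35.9% of all genes of the same transcript lengths) were in all 4 lists, among them EIF4G1, EIF5B and EIF4G3, 4 (11.1%) were in both eIF3b lists alone and 0 in both eIF3a lists alone. The 4 were the start-site factor EIF1 (148 and 119 bases), EIF5 (271 and 120), EIF4EBP3, an inhibitor of the cap-binding factor (174 and 231), and EIF2AK3, the stress kinase PERK (91 and 181). The elongation factor gene EEF1A1 was also eIF3b-alone (91 and 60 bases), with folds of 1.08 and 2.42. Of 31 aminoacyl-tRNA synthetase genes, 5 were common and 4 (12.9%) were eIF3b-alone (CARS2, EPRS, FARSB and TARS). FARS2 was not in that list. In EIF2AK3, EEF1A1 and EPRS the eIF3b replicates shared no peak base. In EIF1, EIF5, EIF4EBP3, CARS2, FARSB and TARS they did. Cytosolic ribosomal protein genes were in all 4 lists in 6 of 38 cases (15.8%, against 23.1% at the same lengths) and mitochondrial ones in 7 of 37 (18.9% against 22.6%), and 21 of 41 ribosome biogenesis genes were common (51.2% against 34.6%).

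Because long transcripts were so often common, each gene group was read beside the share in all 4 lists of all genes with the same lengths. Chromatin remodellers were common in 31 of 35 genes (88.6%, against 55.2% at the same lengths), including SRCAP, CHD2, BAZ2A and BPTF. Genes of the m6A machinery, which writes and reads the RNA mark that METTL16 also makes, were common in 14 of 19 (73.7% against 48.8%), with RBM15, RBM15B and ZC3H13 among them. The values were 17 of 24 for the Wnt pathway (70.8% against 46.7%; LRP5, DVL1, AXIN1), 43 of 64 for histone lysine modifiers (67.2% against 47.9%; KMT2D, KMT2B, SETD1B) and 23 of 32 for myosins, actinins and spectrins (71.9% against 57.5%; MYH9, MYO18A). Low shares were found for histones (2 of 23, 8.7% against 16.9%), cadherins and protocadherins (5 of 40, 12.5% against 51.1%), homeobox genes (4 of 31, 12.9% against 27%), integrins (2 of 15, 13.3% against 45.8%), the respiratory chain (4 of 29, 13.8% against 23%) and plasma proteins of the liver (7 of 41, 17.1% against 27.9%). The cadherin value counts the shared last exons of 22 γ-protocadherin names many times; without those names it was 4 of 18 (22.2%, against 50.3%).

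The contrast sets lay in the 49 groups about as often as all genes did. 31 of the 166 eIF3a-alone genes (18.7%) and 100 of the 447 eIF3b-alone genes (22.4%) lay in at least 1 group, beside 21.5% of all genes. For the groups that follow, the background is 1.62% of all genes for eIF3a-alone and 4.36% for eIF3b-alone. Among 427 C2H2 zinc finger genes 10 were eIF3a-alone (2.34%) and 13 eIF3b-alone (3.04%), and among 195 solute carriers 7 were in each set (3.59%), among them SLC26A10 and SLC11A2 with eIF3a and SLC31A1, SLC25A33 and SLC25A28 with eIF3b. Nuclear pore genes held 2 eIF3a-alone members of 21 (9.52%) and no eIF3b-alone member, and DNA repair genes 2 of each among 35 (5.71%; RAD51B and FANCD2, MSH6 and RAD54L). The 18 eIF3b-alone cadherin names were the 16 γ-protocadherins with CDH15 and DSG2.

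**Figure D4:**
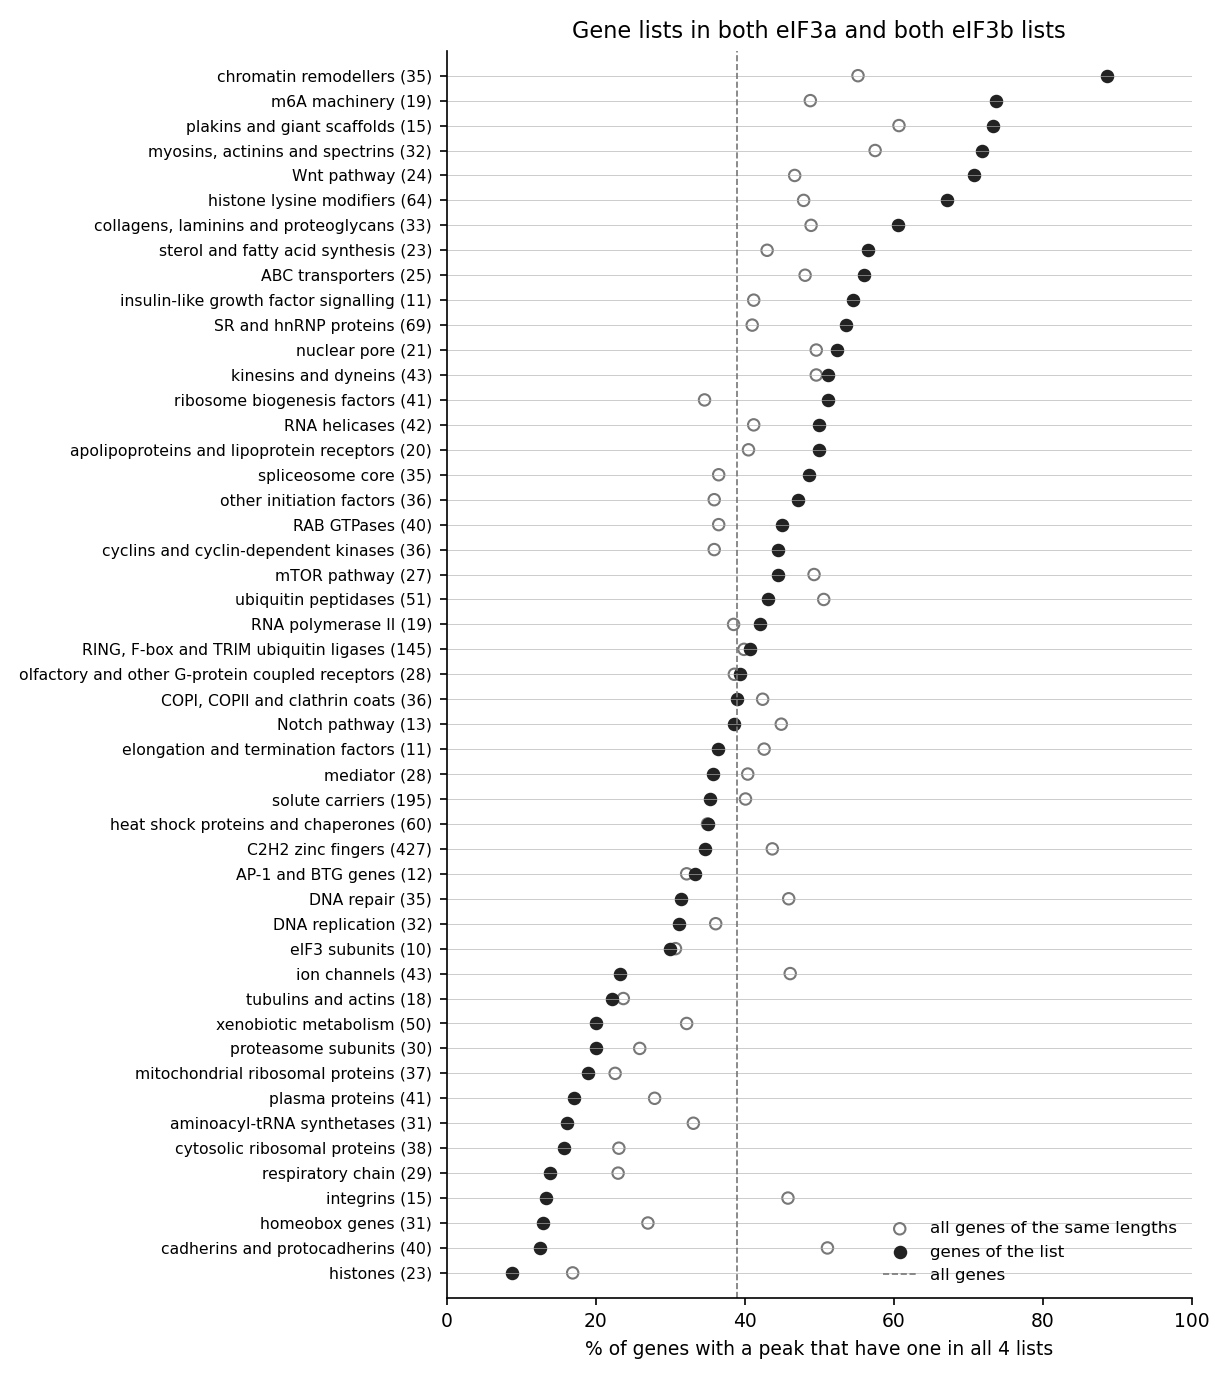
Share of each gene group found in all 4 lists (x axis, percent of the group's genes with a peak; filled points, group size in parentheses) beside the share among all genes of the same transcript lengths (open points), with a dashed line at 38.9% for all genes. Chromatin remodellers stand at 88.6% against 55.2%, and histones at 8.7% against 16.9%; the cadherin value of 12.5% counts 1 shared γ-protocadherin locus under 22 names.

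Along the transcript, both eIF3a lists had a smaller share of peaks in the 5′ UTR and a larger one in the 3′ UTR than both eIF3b lists, differences that 2 lists a group cannot bring past a threshold of 0.05. By the middle base of each peak, 4.51% and 3.06% of eIF3a peaks (3.78% ± 1.03 SD, n = 2) and 7.72% and 5.67% of eIF3b peaks (6.7% ± 1.45) lay in the 5′ UTR. The 3′ UTR held 38.2% and 38.5% of eIF3a peaks and 30.5% and 36.2% of eIF3b peaks, and the coding sequence 57.3% and 58.4% against 61.8% and 58.1%. Start codons lay under 5.57% and 5.19% of eIF3a peaks and 9.77% and 6.64% of eIF3b peaks, and stop codons under 7.44% and 5.65% against 9.53% and 8.69%. The groups did not overlap for either UTR or either codon, but with 2 lists against 2 the exact two-sided permutation p was 0.333, the smallest possible, and it was 0.667 for the coding share. eIF3b replicate 1 held the extreme value in every one of these regions, and without it the differences between eIF3a and eIF3b were -1.89 points for the 5′ UTR and 2.14 for the 3′ UTR, against -2.91 and 5.01 with it. With peaks of at least 4-fold enrichment the differences were -4.44 points for the 5′ UTR and 1.78 for the 3′ UTR. The lists of the subunits then overlapped in their 3′ UTR share.

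**Figure D5:**
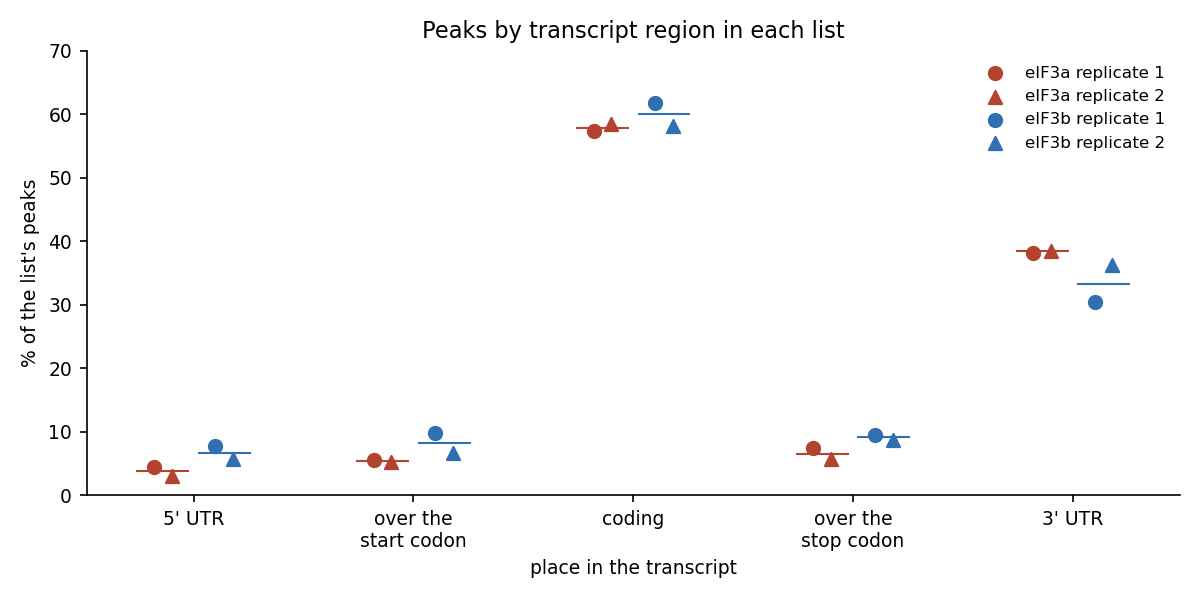
Share of each list's peaks (y axis, percent) by transcript region and over start and stop codons (x axis), 1 point per list and a line at the mean of each subunit. For the 5′ UTR the eIF3a lists (3.06% and 4.51%) lie below the eIF3b lists (5.67% and 7.72%).

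The contrast sets kept that order in the 5′ UTR and over stop codons, but not over start codons or in the 3′ UTR. Stop codons lay under 5.24% and 2.63% of the peaks of eIF3a-alone genes and under 9.1% and 9.67% of those of eIF3b-alone genes. The 5′ UTR held 5.14% and 4.19% of the peaks of eIF3a-alone genes and 11.6% and 11.2% of the peaks of eIF3b-alone genes, UBE2M, C16orf52 and HR being eIF3b-alone genes whose shared bases lay there. Start codons lay under 3.49% and 11.8% of the peaks of eIF3a-alone genes and under 14% and 9.11% of those of eIF3b-alone genes, and the 3′ UTR held 36.9% and 17.2% against 21.3% and 28.4%, so that the groups overlapped in both. The coding share of the eIF3a-alone genes differed between replicates, 57.9% in replicate 1 and 78.6% in replicate 2, a gap larger than that between the subunit means of any region over all genes.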

How the data were processed

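RIP and input RNA of HepG2 cells was depleted of ribosomal RNA, made into stranded libraries and sequenced on a NovaSeq instrument. The submitters' processing notes name STAR and GRCh38. The authors called peaks per sample with exomePeak at default parameters. Its version, the annotation and which input went with which RIP are not given in the sources used here. Each deposited list gives, per peak, a gene name, exonic blocks, p-values (as a score and as log10 values) and the fold enrichment ratio over input, all made by the authors. Neither input files nor read counts were analysed here, so depth is unknown.

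Block lengths were summed per gene name and the highest fold per gene taken, in Python 3.11.15 with pandas 2.3.3, numpy 2.4.6, scipy 1.17.1 and matplotlib 3.10.9. Both were tested on the log2 scale for genes with a peak in all 4 lists, each list centred on its median, with limma 3.58.1 in R 4.3.3 and Benjamini-Hochberg adjustment. The fit was tested on simulated data. Overlap and region shares were given exact permutation tests over lists. With 2 lists a group, limma p-values rest on the spread between these lists, pooled in part across the genes tested. Permutation p-values are bounded by the few ways to divide 4 lists. Transcript length, GC content and regions came from the GENCODE release 44 reference (GRCh38), to which 9712 names matched directly, 424 as older symbols and 106 not at all. Wilson intervals are at 95%.

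The genes named are the 12 with the largest summed bases and the 8 with the largest fold in the lower list of each contrast set, the 12 with the largest summed bases in the lowest of all 4 lists, the 13 eIF3 subunits and up to 4 members of each gene group. Other genes named were chosen after their values were seen. Members and gene lists were chosen with earlier results of these data known. The alternatives were 4-fold peaks, the 12000 or 5000 strongest peaks, current symbols, exonic bases as the unit, no centring, pseudocounts of 100 bases or 1 fold with all genes, a mean in place of the highest fold, the replicate number as a block and leaving out each list. Some genes that the rule names are not reported here.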

Additional observations from a re-analysis of the deposited data

How the results depend on the processing

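The deposited lists carry no read counts, so depth limits what can be said of a gene without a peak, and 2 lists a group allow no exact permutation p below 0.333. Of 137 alternative values, 27 were counted as changed and 110 were not. A change was a turn of sign or a move by over 1.5 times (counts) or 1 SD (shares and differences). For the log2 differences of EIF3A and EIF3B, only a turn of sign or of the call at an adjusted p of 0.05 was counted. Moves of over 1 SE, such as EIF3B bases from -2.01 to -2.98 without eIF3a replicate 1, thus stand among the unchanged values. Of the 137 values, 34 are limma counts, 1 for each direction of a fit. All 34 were counted as unchanged, and they stayed at 0 calls wherever all 4 lists were kept. Fits that leave out a list have 1 list in a group, and their calls are not read here. The labels do not tie same-numbered replicates, and with the replicate number as a block limma made 0 calls, with 252 genes for bases and 283 for fold at an unadjusted p under 0.05. Restricting the pairs between subunits to same-numbered replicates, the pairing moved the Jaccard difference from 0.00304 to 0.00451. At 4-fold or more, 1113 genes were in all 4 lists, and the region differences (eIF3a minus eIF3b) were -4.44 points for the 5′ UTR, 1.78 for the 3′ UTR and 2.65 for coding, which turned its direction from -2.09. With 12000 peaks per list, 243 genes were eIF3a-alone and 330 eIF3b-alone. With 5000, 1313 genes were in all 4 and 230 were eIF3b-alone. Leaving out 1 list at a time gave 382 to 844 eIF3a-alone genes, 606 to 2349 eIF3b-alone genes, 4144 to 5887 genes in all remaining lists and Jaccard differences of -0.103 to 0.188, below 0 without either eIF3b list (-0.103 and -0.0787). The region differences then ranged from -3.94 to -1.89 (5′ UTR), -3.93 to -0.254 (coding) and 2.14 to 7.87 (3′ UTR). Of alternatives chosen after seeing the data, the GC difference between the contrast sets was -6.94 at 4-fold, -7.96 with 5000 peaks and -12.7 to -4.38 without 1 list, and the METTL16 difference was -41 at 4-fold and -46.7 to -6.25 without 1 list. For EIF3A the log2 difference changed sign to -0.11 for bases without centring and, for fold, to 0.42 without eIF3a replicate 2, in a range of -1.29 to 0.42 without 1 list. The cause of these changes was not tested.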

Other observations

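Along the coding sequence, split into 20 parts of equal length, the lists had different profiles. The first part held 4.32% of the coding peak bases of eIF3a replicate 1, 3.79% of replicate 2, 5.05% for eIF3b replicate 1 and 4.45% for eIF3b replicate 2. The last part held 5.9%, 3.58%, 5.57% and 5.95%. eIF3a replicate 2 was the list that was lowest at both ends, with its highest value of 5.67% in the tenth part, whereas in the other 3 the last 4 parts held more than the first 4. The METTL16 transcript itself had peaks in all 4 lists, with 694 and 543 bases for eIF3a and 902 and 1173 for eIF3b, at highest folds of 10.5 and 6.53 against 30.5 and 16.9. The eIF3b values were also the higher in 28.2% of the common genes for bases and in 34% for fold. The lists differ in overall level, and these values were not centred.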
